A study of Mus musculus with 20 samples.

Results

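A 215 kb interval of mouse chromosome 1, at 74800001-75015000 of the mm9 build, was examined as the signalling domain of Wnt6, Wnt10a, Cdk5r2, Fev and Ihh, 5 genes that follow in this order. The interval was chosen by its coordinates with the peak coverage of these libraries already known, so its H3K27me3 coverage is given as a description and supports nothing. Across 10 deposited peak lists, 402 of 4480164 peaks touched the interval by at least 1 bp, against 415 in the 100 kb on each side. Of the 402, 139 came from the 4 lists of H3K27me3, 168 from the 2 lists of Ezh2 and 95 from the 4 lists of pRb.

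The lists came from chromatin immunoprecipitation and sequencing of mouse embryonic fibroblasts, primary cells of C57BL/6 embryos at E13.5, used at passage 4 after growth in 10% serum. H3K27me3 was assayed in SS and WT cells made quiescent by serum deprivation (0.1% serum for 72 h) and in asynchronously proliferating SS and WT cells. Ezh2 was assayed in serum-deprived SS and WT cells, and pRb in arrested and in proliferating SS and WT cells. For the arrested pRb libraries the labels give confluence in one field and the low-serum treatment in another. SS is the mutant genotype under the name in the labels, which do not spell it out, and WT is wild type. Chromatin was cross-linked with EGS and formaldehyde in all groups, and pRb was precipitated with 5 antibodies. Every combination rests on a single library. Differences below are therefore given without a test, and sequencing depth is unknown. Marker genes of fibroblasts cannot be checked in peak lists.

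The interval brings together genes of several tissues. Wnt6 and Wnt10a encode secreted Wnt ligands, which act on neighbouring cells through Frizzled receptors and beta-catenin and take part in the formation of epithelial organs; Wnt10a is known for its part in teeth, hair and skin. Ihh, Indian hedgehog, is a secreted ligand that controls chondrocyte growth in developing bone through the receptor Patched. Cdk5r2 encodes p39, an activator of the kinase Cdk5 in neurons, and Fev (Pet-1) is an ETS transcription factor of serotonergic neurons. H3K27me3 is laid down by Ezh2, which forms the active site of the PRC2 complex, mostly at CpG-rich regulatory genes that a cell type keeps silent, and pRb is the retinoblastoma tumour suppressor, which binds E2F transcription factors. In the RefSeq gene table, which belongs to GRCm38.p6, 13 genes lie from Wnt6 to Ihh, of which 7 encode proteins. The neighbour before Wnt6 is Prkag3, a subunit of AMP-activated kinase in muscle, and the neighbour after Ihh is Nhej1, a factor of DNA end joining. Cryba2, Mir375 and Cfap65 lie between Fev and Ihh. No annotation of mm9 was used, so peaks are given by position within the interval and were not assigned to single genes.

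The promoters of the members are shown because H3K27me3 covered most of the interval in 3 libraries and because this mark favours CpG-rich promoters. Windows of 300 bases (250 before to 50 after the start, RefSeq, GRCm38.p6) matched 4 of the 5 members, all but Wnt10a. Positions of these windows belong to GRCm38.p6 and cannot be set beside the mm9 positions of the peaks. Sequences run 5′ to 3′ on the gene's strand, and capitals mark each CG dinucleotide.
Wnt6, chr1:74771642-74771941, plus strand: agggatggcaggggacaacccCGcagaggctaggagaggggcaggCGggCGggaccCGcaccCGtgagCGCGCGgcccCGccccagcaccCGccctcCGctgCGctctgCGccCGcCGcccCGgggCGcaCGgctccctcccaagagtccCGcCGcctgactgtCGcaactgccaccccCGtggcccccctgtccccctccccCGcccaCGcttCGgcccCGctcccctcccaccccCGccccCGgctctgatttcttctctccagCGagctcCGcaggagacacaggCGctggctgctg
Cdk5r2, chr1:74854779-74855078, plus strand: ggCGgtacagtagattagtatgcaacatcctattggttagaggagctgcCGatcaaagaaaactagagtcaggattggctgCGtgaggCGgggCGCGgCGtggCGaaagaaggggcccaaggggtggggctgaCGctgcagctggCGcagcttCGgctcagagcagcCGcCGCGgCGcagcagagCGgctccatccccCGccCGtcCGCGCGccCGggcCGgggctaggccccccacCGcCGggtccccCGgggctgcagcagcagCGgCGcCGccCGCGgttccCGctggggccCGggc
Fev, chr1:74885359-74885658, minus strand: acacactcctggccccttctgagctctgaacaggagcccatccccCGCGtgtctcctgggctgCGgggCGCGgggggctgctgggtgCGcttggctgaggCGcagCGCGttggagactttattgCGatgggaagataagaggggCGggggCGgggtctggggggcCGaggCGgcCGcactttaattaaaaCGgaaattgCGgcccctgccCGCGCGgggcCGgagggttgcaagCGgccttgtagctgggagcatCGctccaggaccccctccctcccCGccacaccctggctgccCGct
Ihh, chr1:74951623-74951922, minus strand: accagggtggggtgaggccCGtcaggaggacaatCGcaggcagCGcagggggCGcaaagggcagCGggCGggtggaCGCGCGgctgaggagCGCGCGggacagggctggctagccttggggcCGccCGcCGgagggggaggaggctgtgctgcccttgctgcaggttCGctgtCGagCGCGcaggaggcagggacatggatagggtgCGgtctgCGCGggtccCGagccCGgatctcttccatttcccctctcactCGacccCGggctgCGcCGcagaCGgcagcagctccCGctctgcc

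All 4 windows were rich in CG dinucleotides. Cdk5r2 held 33, Wnt6 31, Ihh 30 and Fev 25, against a median of 7 over 32851 windows of the same length. At least as many as in the Cdk5r2 window were found in 8.56% of all windows, and the shares were 10.6% for Wnt6, 11.7% for Ihh and 18.4% for Fev. The G and C bases made up 76.7% of the Wnt6 window, 72.7% of Ihh, 71.7% of Cdk5r2 and 69.0% of Fev. Of the Wnt ligand genes, Wnt6 included, 15 of the 19 matched, and their 18 windows held 4 to 58 CG dinucleotides with a median of 28. Of the hedgehog ligands, Ihh included, 2 of 3 matched, with 30 in Ihh itself and 12 in the other. The E2F-like motif TTTNNCGC, searched on both strands, was in 0 of the 4 members' windows, in 2 of the 18 Wnt windows and in 5.17% of all windows. A match or its lack describes these letters only.

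H3K27me3 covered most of the interval in 3 of the 4 libraries. Peaks lay on 80.5% of it in arrested SS cells, 43.1% in arrested WT cells, 92.0% in proliferating SS cells and 90.0% in proliferating WT cells. The arrested WT library stood apart from the other 3, and it was also the H3K27me3 list with the most and the shortest peaks over the whole genome. It held 656342 peaks with a median length of 138 bp, whereas the arrested SS list held 227847 with a median of 439 bp. The proliferating SS list held 168793 with a median of 702 bp and the proliferating WT list 143252 with a median of 723 bp. The part of peak length and peak number in the difference was not tested.

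**Figure D1:**
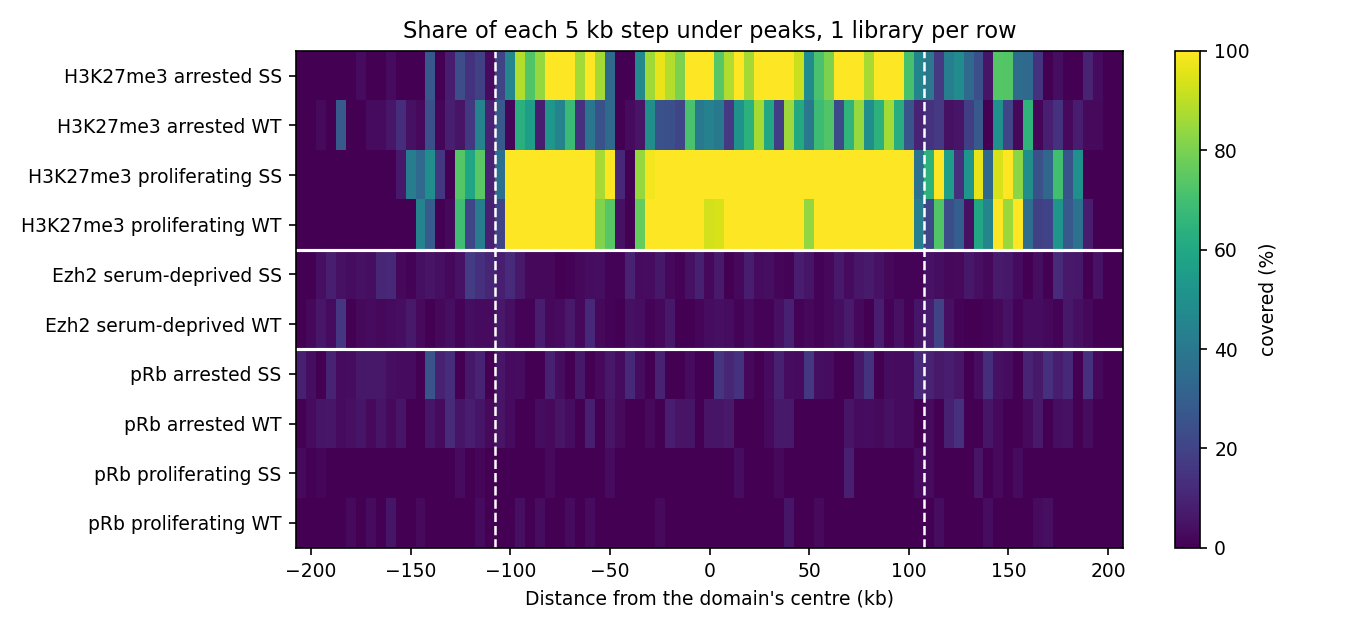
Share of each 5 kb step under peaks (colour, in percent) against the distance from the interval's centre in kb; each row is 1 library, SS above WT, and dashed lines mark the interval's bounds. The 2 proliferating H3K27me3 rows are at 100% in most steps between the bounds, arrested SS is close to them, arrested WT is lower, and the Ezh2 and pRb rows stay under 20% inside the bounds.

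The interval was among the most covered stretches of the autosomes. The autosomes were tiled into 11201 windows of the same 215 kb, some of which overlap the interval itself. Only 1 window (0.00893%) was covered as much in arrested SS cells, 3 (0.0268%) in arrested WT cells, 6 (0.0536%) in proliferating SS cells and 6 (0.0536%) in proliferating WT cells. The median window was covered to 3.05% in arrested SS, 6.39% in arrested WT, 5.29% in proliferating SS and 3.53% in proliferating WT cells. Since the interval was chosen with this coverage known, nothing is read from these ranks.

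The surroundings were covered less, and unevenly on the 2 sides. On the Wnt6 side, the 100 kb before the interval were covered to 5.03% in arrested SS, 8.69% in arrested WT, 18.2% in proliferating SS and 10.8% in proliferating WT cells. On the Ihh side the shares were 23.0% in arrested SS, 13.3% in arrested WT, 47.4% in proliferating SS and 37.2% in proliferating WT cells, so in each of the 4 libraries the side beyond Ihh carried more of the mark. Coverage of the interval was 5.75 times that of both sides together in arrested SS, 3.92 times in arrested WT, 2.80 times in proliferating SS and 3.75 times in proliferating WT cells. Against all autosomes the ratio was 12.1 in arrested SS, 5.60 in arrested WT, 7.78 in proliferating SS and 9.20 in proliferating WT cells. The last 10 kb of the right side, at 75105001-75115000, held no peak in any of the 10 lists.

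**Figure D2:**
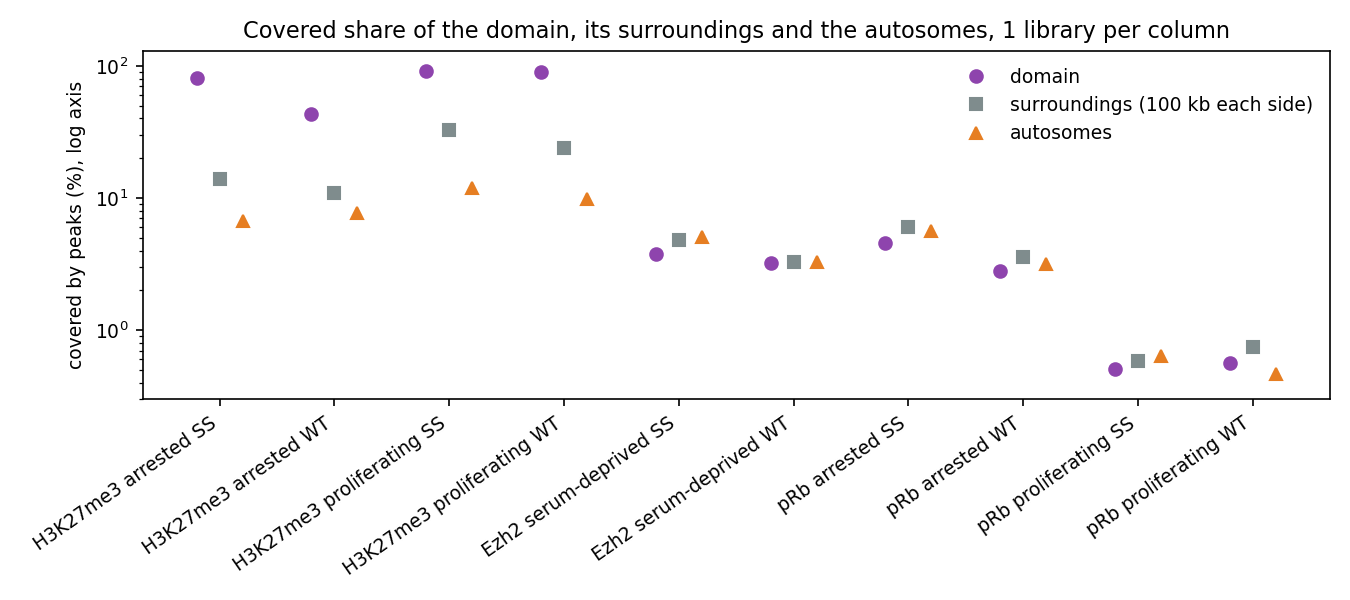
Percent of sequence under peaks (log axis) in each of the 10 libraries, for the interval (circles), the 100 kb on each side together (squares) and the autosomes (triangles). H3K27me3 circles lie between 43.1% and 92.0%, above their squares and triangles, whereas the circles of Ezh2 and pRb lie close to theirs.

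In proliferating cells the mark lay in a few very long peaks. The proliferating SS list had 6 peaks in the interval, of which the longest, at 74875087-75011099, ran for 136013 bp and ranked 7 by length among all 168793 peaks of its list. Its next longest, at 74803935-74854339, had 50405 bp. The proliferating WT list had 7 peaks, led by 52109 bp at 74958879-75010987, 50077 bp at 74803974-74854050 and 47758 bp at 74910301-74958058. The sequence under the single long SS peak was thus split among several WT peaks with short breaks between them. The outer edges agreed closely between the genotypes: the left edge of the long peaks differed by 39 bp and the right edge by 112 bp. Peaks of at least 10 kb covered 86.7% of the interval in proliferating SS and 85.9% in proliferating WT cells.

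In arrested cells the same ground was covered in pieces. The arrested SS list had 32 peaks with a median length of 2189 bp, 7 of them at least 10 kb long, which covered 57.3% of the interval. The longest, at 74927653-74954605, had 26953 bp and ranked 43 by length in its list. The arrested WT list had 94 peaks with a median length of 691 bp and none of 10 kb. Its longest, at 74993095-74998849, had 5755 bp and ranked 93 by length. Authors' fold enrichment, the signal over background that their peak caller assigned to each peak, can be read only within a list. In the arrested WT list its median was 6.59 over the 94 peaks of the interval and 5.69 over the 56 peaks of the surroundings. The matching medians were 3.63 and 3.25 in arrested SS, 3.41 and 2.81 in proliferating SS, and 5.24 and 2.62 in proliferating WT cells.

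**Figure D3:**
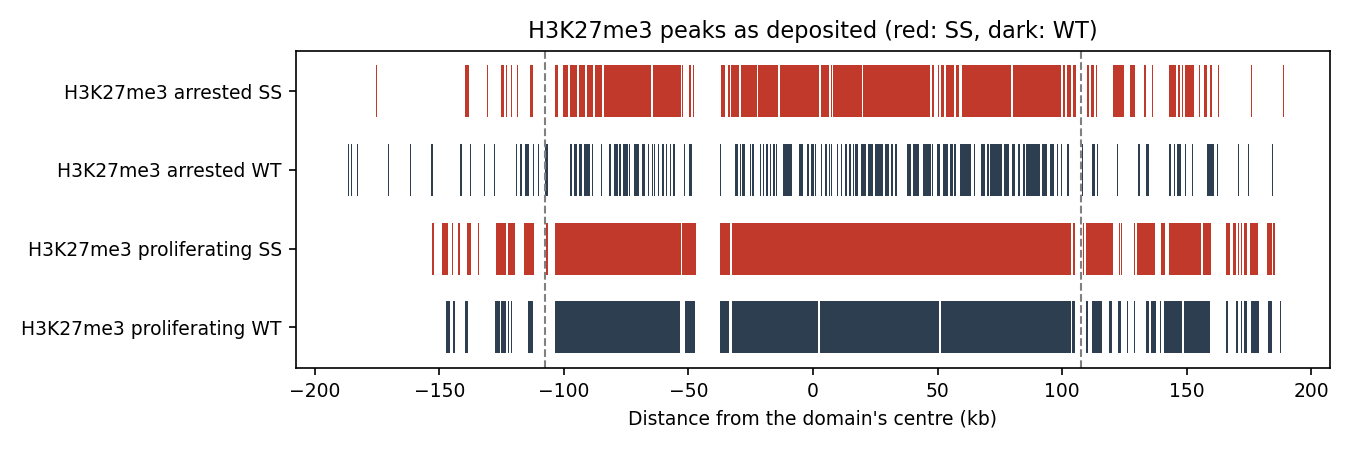
H3K27me3 peaks as deposited, drawn to scale against the distance from the interval's centre in kb; each row is 1 library (red SS, dark WT) and dashed lines mark the bounds. Proliferating rows show blocks of up to 136013 bp, and the arrested SS row is lightly broken. The arrested WT row has 94 short peaks between the bounds, and all 4 rows are blank near -40 kb.

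A stretch without H3K27me3 divided the interval at the same place in all 4 libraries. The longest uncovered stretch ran over 10852 bp at 74859726-74870577 in arrested SS, 9185 bp at 74858867-74868051 in arrested WT, 9518 bp at 74860568-74870085 in proliferating SS and 9899 bp at 74860220-74870118 in proliferating WT cells. The 4 stretches had 7484 bp in common, at 74860568-74868051. Each library's own longest stretch made up 25.9% of its uncovered sequence in arrested SS, 7.51% in arrested WT, 55.1% in proliferating SS and 46.0% in proliferating WT cells. Counting the longest, the arrested libraries had many breaks between peaks, with 31 in SS and 93 in WT cells, against 5 in proliferating SS and 6 in proliferating WT cells. The common stretch was not empty in the other lists. It held 3 Ezh2 peaks in SS and 2 in WT cells, and 2 arrested pRb peaks in SS cells and 0 in WT cells.

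The stretch, noticed after the values were seen, left a shorter block of 56.6 kb on the Wnt6 side and a longer block of 143.0 kb on the Ihh side. In the shorter block H3K27me3 covered 81.2% in arrested SS, 36.0% in arrested WT, 98.8% in proliferating SS and 95.3% in proliferating WT cells. In the longer block it covered 88.1% in arrested SS, 49.5% in arrested WT, 98.0% in proliferating SS and 96.7% in proliferating WT cells. In both arrested libraries the longer block was the more covered, whereas in proliferating cells the 2 blocks differed by under 2 percentage points in either genotype.

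At the left bound the proliferating libraries passed to full coverage within 10 kb, and at the right bound coverage went on outside. Just outside the left bound, at 74795001-74800000, coverage was 3.08% in arrested SS, 10.1% in arrested WT, 10.0% in proliferating SS and 8.84% in proliferating WT cells. Just inside, at 74800001-74805000, it was 20.3% in arrested SS, 28.0% in arrested WT, 36.6% in proliferating SS and 20.5% in proliferating WT cells. The next step inside was fully covered in both proliferating libraries. At the right bound the last step inside, at 75010001-75015000, was covered to 45.3% in arrested SS, 9.72% in arrested WT, 37.7% in proliferating SS and 42.9% in proliferating WT cells. The first step outside, at 75015001-75020000, had 39.5% in arrested SS, 14.2% in arrested WT, 64.6% in proliferating SS and 21.7% in proliferating WT cells.

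Steps of 5 kb show the same pattern at finer scale. Of the 43 steps in the interval, 35 were covered to at least 50% in arrested SS cells, against 3.56% of 480400 autosomal steps. The counts were 18 in arrested WT cells against 0.877%, 39 in proliferating SS cells against 9.91% and 39 in proliferating WT cells against 8.26%. The median step was covered to 88.3% in arrested SS, 43.8% in arrested WT and 100% in both proliferating libraries. No step of the arrested WT library was fully covered, while 18 were in arrested SS, 35 in proliferating SS and 33 in proliferating WT cells.

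The first comparison asked whether the mutant genotype changed the mark on the interval in arrested cells. Arrested SS peaks covered 80.5% and arrested WT peaks 43.1%, a difference of 37.4 percentage points and a ratio of 1.87. Over the autosomes the order was the other way, 6.64% in SS and 7.69% in WT cells, and the surroundings had 14.0% in SS and 11.0% in WT cells. A step was called gained or lost when its covered share differed by at least 20 percentage points. In the interval 31 of 43 steps were gained in SS, where 5.71% of autosomal steps were, and 0 were lost, where 3.30% were. A step can be gained only where SS coverage was at least 20%. In arrested SS cells 35 of the 43 steps were covered to at least 50%, against 3.56% of autosomal steps, so the autosomal share is no like background. Of the 40 steps of the surroundings 6 were gained and 3 lost. The steps that differed most lay in both blocks. At 74940001-74945000 coverage was 100% in SS and 18.5% in WT cells, at 74970001-74975000 it was 100% in SS and 22.5% in WT cells, and at 74820001-74825000 it was 84.2% in SS and 7.98% in WT cells. The largest shortfall in SS was 7.7 percentage points, at the left bound.

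This difference depended on which peaks were kept. At a common cutoff, a -log10 q-value of at least 5 in both lists, SS peaks covered 5.16% and WT peaks 41.8% of the interval, so the order was reversed; this cutoff left 3102 SS peaks and 460963 WT peaks in the whole lists. With both lists cut to the same number of peaks the shares were 80.5% in SS and 18.1% in WT cells. Arrested SS peaks of the interval reached a -log10 q-value of 5.18 at most and arrested WT peaks 40.2. The WT value belonged to a peak of 688 bp at 74845170-74845857.

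With all peaks kept, most sequence with the mark in arrested WT cells lay under SS peaks; at the common cutoff the share was 3.79%. With all peaks the genotypes shared 83.7 kb, which was 48.4% of the SS-covered and 90.4% of the WT-covered sequence. In the interval 84 of 94 WT peaks met an SS peak, or 89.4% (95% Wilson interval 81.5 to 94.1), while SS peaks covered 80.5% of the ground. Over the autosomes 15.9% of arrested WT peaks met an SS peak.

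In proliferating cells both genotypes had most of the interval covered. SS peaks covered 92.0% and WT peaks 90.0%, a difference of 1.96 percentage points and a ratio of 1.02. The ratio was 1.37 in the surroundings and 1.21 over the autosomes. Of the 43 steps, 33 had equal coverage, 1 was gained in SS, where 5.60% of autosomal steps were, and 0 were lost, where 1.58% were. The gained step, at 74855001-74860000, was covered to 99.4% in SS and 74.0% in WT cells and borders the stretch without the mark. Of the 40 steps of the surroundings 9 were gained and 0 lost. The interval cannot show much gain where WT coverage is already complete, as it was in 33 steps. Shared sequence amounted to 97.5% of the SS-covered and 99.6% of the WT-covered sequence.

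**Figure D4:**
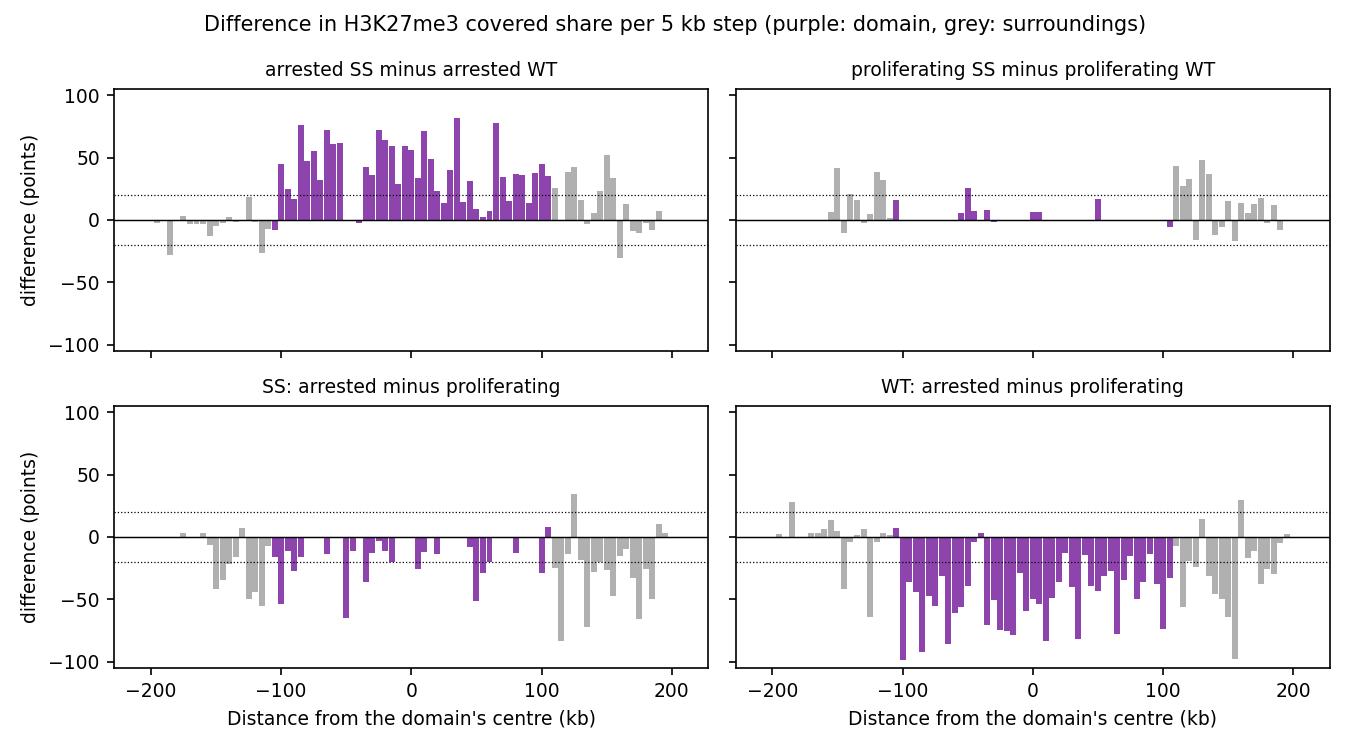
Difference in H3K27me3 covered share (percentage points) per 5 kb step against the distance from the interval's centre in kb, for the 4 comparisons; purple bars lie in the interval, grey bars in the surroundings, and dotted lines mark 20 points. Arrested SS minus WT has 31 purple bars above the upper line, proliferating SS minus WT has 1, and arrested minus proliferating has 8 below the lower line in SS and 36 in WT cells.

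Arrested cells were then set against proliferating cells of the same genotype. In SS cells the interval was covered to 80.5% when arrested and 92.0% when proliferating, a difference of -11.5 percentage points and a ratio of 0.875. In WT cells it was covered to 43.1% when arrested and 90.0% when proliferating, a difference of -46.9 points and a ratio of 0.479. Over the autosomes the ratio was 0.562 in SS and 0.786 in WT cells, and in the surroundings it was 0.427 in SS and 0.458 in WT cells. In SS cells 8 of 43 steps were lost on arrest, where 12.5% of autosomal steps were, and 0 were gained, where 0.823% were. In WT cells 36 were lost, where 11.4% were, and 0 were gained, where 2.74% were. Of the 40 steps of the surroundings 17 were lost and 1 gained in SS cells, and 12 were lost and 2 gained in WT cells. The 3 steps with the largest losses in SS cells lay apart from each other. At 74855001-74860000 coverage was 34.8% in arrested and 99.4% in proliferating SS cells, and at 74805001-74810000 it was 46.4% in arrested and 100% in proliferating SS cells. The third, at 74955001-74960000, had 48.6% in arrested and 100% in proliferating SS cells. The step at 74805001-74810000 also had the largest loss in WT cells, with 1.58% in arrested and 100% in proliferating cells. The difference between the genotypes in the response to arrest rests on 4 single libraries and was not tested. Its order depended on which peaks were kept. At the common cutoff, arrested minus proliferating was -83.5 points in SS and -45.8 points in WT cells, the other way round from all peaks. With equal list lengths it was -12.5 points in SS and -82.0 points in WT cells, and with peaks within 1 kb merged -3.86 points in SS and -32.3 points in WT cells.

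Ezh2, the enzyme that writes the mark, had short peaks across the interval at a density near that of the autosomes. In serum-deprived cells its peaks covered 3.78% of the interval in SS and 3.20% in WT cells, a difference of 0.575 percentage points. With both lists cut to the same number of peaks the order turned, with 2.63% in SS and 3.20% in WT cells, a difference of -0.571 points. With peaks within 1 kb merged the difference was 4.78 points. The surroundings were covered to 4.80% in SS and 3.26% in WT cells and the autosomes to 5.06% in SS and 3.29% in WT cells. Of the 215 kb windows of the autosomes, 89.2% were covered at least as much in SS and 53.9% in WT cells. The interval held 93 Ezh2 peaks in SS cells, or 43.3 per 100 kb (exact Poisson 95% interval 34.9 to 53.0, counting error only), against 47.4 over the autosomes. In WT cells it held 75, or 34.9 per 100 kb (27.4 to 43.7), against 33.7. Most were as short as the list allows: 57 of the 93 had 51 bp and 46 of the 75 had 50 bp. The same held for the whole lists, whose median lengths were 51 bp in SS and 50 bp in WT cells.

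Few Ezh2 peaks met between the genotypes, on the interval as over the autosomes. The highest score in SS cells belonged to a peak of 56 bp at 74883744-74883799, with a -log10 q-value of 12.6, which ranked 204 among 1184135 peaks. No WT Ezh2 peak lay there, while all 4 H3K27me3 lists had a peak there. In WT cells the highest was 4.11, for 50 bp at 74879666-74879715. Peaks of both genotypes met at 10 places, 10 of 93 SS peaks (10.8%) and 10 of 75 WT peaks (13.3%), and the autosomal shares were 8.15% of SS and 11.5% of WT peaks. In SS cells 73 of 93 Ezh2 peaks (78.5%, Wilson interval 69.1 to 85.6) met arrested H3K27me3, which covered 80.5% of the interval. In WT cells 38 of 75 (50.7%, 39.6 to 61.7) did so, with 43.1% covered. Over the autosomes 8.37% of SS and 11.3% of WT Ezh2 peaks met arrested H3K27me3 of their genotype. These meetings need only 1 bp of overlap. With at least 50% of the Ezh2 peak required, 72 of 93 (77.4%) in SS and 32 of 75 (42.7%) in WT cells met it on the interval.

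pRb peaks were sparse on the interval, as on the autosomes. They covered 4.56% in arrested SS, 2.80% in arrested WT, 0.509% in proliferating SS and 0.561% in proliferating WT cells. In the surroundings they covered 6.03% in arrested SS, 3.56% in arrested WT, 0.5865% in proliferating SS and 0.7405% in proliferating WT cells. The autosomes were covered to 5.61% in arrested SS, 3.16% in arrested WT, 0.637% in proliferating SS and 0.470% in proliferating WT cells. Autosomal windows at least as covered as the interval made up 88.5% in arrested SS, 69.4% in arrested WT, 65.4% in proliferating SS and 29.9% in proliferating WT cells. SS exceeded WT by 1.76 percentage points in arrested cells, a ratio of 1.63 against 1.70 in the surroundings and 1.78 over the autosomes. This order turned with equal list lengths, to 2.52% in SS and 2.80% in WT cells, a difference of -0.282 points, and among peaks at or above the median score the difference was 0.162 points. In proliferating cells SS minus WT was -0.0521 points, a ratio of 0.907 against 0.792 in the surroundings and 1.36 over the autosomes. The sign on the interval varied between alternatives, from -0.263 points with equal list lengths to 0.124 points at a score of at least 50. Arrested over proliferating gave a ratio of 8.95 in SS and 4.99 in WT cells on the interval, and 8.81 in SS and 6.72 in WT cells over the autosomes. In the surroundings it was 10.3 in SS and 4.80 in WT cells. List length moved with these values, with 650383 peaks in arrested SS, 424588 in arrested WT, 106472 in proliferating SS and 77809 in proliferating WT cells. With equal list lengths the arrested minus proliferating difference turned, to -0.199 points in SS, where it was 4.05 with all peaks, and to -0.223 points in WT cells, where it was 2.24.

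**Figure D5:**
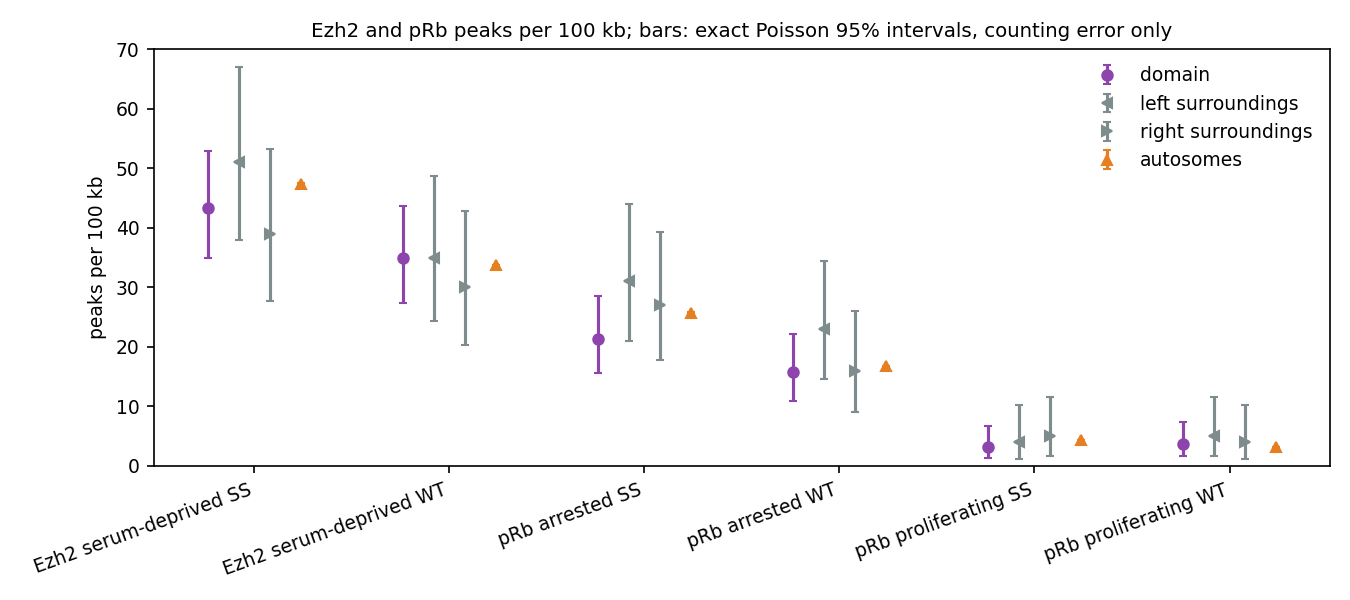
Ezh2 and pRb peaks per 100 kb in the interval (circles), the left and right surroundings (grey triangles) and the autosomes (orange triangles), 1 library per column, with exact Poisson 95% intervals that cover counting error only. In each of the 6 libraries the autosomal density lies within the interval around the circle.

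The interval held 46 pRb peaks in arrested SS cells, 34 in arrested WT, 7 in proliferating SS and 8 in proliferating WT cells. Per 100 kb arrested SS had 21.4 (exact Poisson 95% interval 15.7 to 28.5) against 25.7 over the autosomes, and arrested WT had 15.8 (11.0 to 22.1) against 16.7. Proliferating SS had 3.26 (1.31 to 6.71) against 4.36, and proliferating WT had 3.72 (1.61 to 7.33) against 3.19. Arrested SS and WT peaks met at 3 places, with 3 to 132 bp in common, and proliferating peaks at none, where 1.25% of SS and 1.70% of WT proliferating peaks met over the autosomes. The widest of these places, at 74948534-74948665, had a peak in 6 of the 10 lists. They were the 2 arrested pRb lists that define the place and the 4 lists of H3K27me3. The mark covered its 5 kb step to 85.4% in arrested WT cells and to 100% in the other H3K27me3 lists. Of arrested SS peaks 3 of 46 (6.52%) met a WT peak, against 7.25% over the autosomes, and of arrested WT peaks 3 of 34 (8.82%) met an SS peak, against 11.1%. The highest pRb score in arrested SS cells, 310.6, was at 74942910-74943094 and in arrested WT cells, 228.0, at 74809719-74809860. In proliferating cells it was 54.7 at 74978951-74979216 in SS and 31.0 at 74810837-74811034 in WT cells.

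pRb peaks met the mark about as often as its coverage of the interval. In arrested SS cells 39 of 46 pRb peaks (84.8%, Wilson interval 71.8 to 92.4) met an H3K27me3 peak, where 80.5% was covered. In arrested WT cells 19 of 34 (55.9%, 39.5 to 71.1) did so, where 43.1% was covered. In proliferating cells it was 6 of 7 in SS (Wilson interval 48.7 to 97.4), where 92.0% was covered. It was 8 of 8 in WT cells (67.6 to 100), where 90.0% was covered. Over the autosomes the shares were 9.27% in arrested SS, 13.7% in arrested WT, 14.6% in proliferating SS and 11.4% in proliferating WT cells. With Ezh2 of the same genotype, 11 of 46 arrested SS pRb peaks met a peak (23.9%, 13.9 to 37.9), against 16.7% over the autosomes, and 3 of 34 arrested WT peaks (8.82%, 3.05 to 23.0), against 10.5%. The arrest labels of the pRb libraries differ from those of the other antibodies.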

How the data were processed

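Peak lists of 10 immunoprecipitated libraries were used, grouped by sample title; 10 input libraries were not analysed here. The build is mm9, and MACS2, HOMER, Bowtie2 and bedtools are named, per the submitters' processing notes; their versions and settings are not given here. Each of the 4 deposited pRb lists gives peaks a score of no stated unit, at least 20. The 6 other deposited lists hold a score, the fold enrichment as a ratio, and the -log10 q-value and -log10 p-value that the authors' caller assigned. Covered share depends on how many peaks were called and how long they are, and depth is unknown.

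Positions are printed counted from 1. Covered share is the percent of bases under peaks. Autosomal values used 480400 steps of 5 kb in 100 kb bins with any peak. The genes and the interval were chosen with earlier results of these data known. Named positions followed a rule: the 3 longest H3K27me3 peaks, the highest-scoring peak and the longest uncovered stretch per list, and the 3 steps of largest gain and loss per comparison, of which the leading ones are described. Block limits were set after values were seen. Intervals (Wilson, exact Poisson) cover counting error over peaks only. Coverage code was tested on 20 simulated interval sets and equalled a base-by-base count in 20. Alternatives were length and score filters, equal list lengths, merging, other bounds, steps and call limits. Software was matplotlib 3.10.9, scipy 1.17.1, pandas 2.3.3, numpy 2.4.6 and Python 3.11.15.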

Additional observations from a re-analysis of the deposited data

Results flagged for a closer look

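The genotype difference in pRb coverage of the interval had opposite signs in the 2 growth conditions: SS minus WT was 1.76 percentage points in arrested cells and -0.0521 percentage points in proliferating cells. Each value rests on 1 library per group, and the difference between them was not tested. The proliferating value comes from 7 SS and 8 WT peaks. The opposite signs did not hold under several alternatives. With equal list lengths both differences were negative, at -0.282 points in arrested and -0.263 points in proliferating cells. Both were positive with the bounds trimmed by 25 kb (2.02 in arrested and 0.0588 in proliferating cells), among peaks at or above the median score (0.162 and 0.0158) and at the common score cutoff (1.86 and 0.124). Opposite signs were not particular to the interval. With all peaks kept, SS minus WT in the surroundings was 2.47 points in arrested and -0.154 points in proliferating cells.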

How the results depend on the processing

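With 1 library per group, depth unknown and settings of the peak calls not given, values describe called coverage and not the amount of the mark. Of 63 alternatives for the 9 differences in coverage of the interval, 59 stayed within the counting interval of the reported value, taken over 43 steps, which are not independent of their neighbours. That interval is wide beside the small differences of Ezh2 and pRb and does not show stability there: 7 of the 59 had the other sign, all for Ezh2 or pRb. With equal list lengths the sign turned for Ezh2 SS minus WT (-0.571 points), arrested pRb SS minus WT (-0.282), and pRb arrested minus proliferating in SS (-0.199) and WT cells (-0.223). With equal list lengths, the arrested SS minus WT difference in H3K27me3 was 62.4 percentage points and the WT arrested minus proliferating difference -82.0 points. At the common score cutoff, chosen after seeing the data, the arrested SS minus WT difference was reversed, at -36.6 points, and the SS arrested minus proliferating difference was -83.5 points. There the excess of the interval over its surroundings was 5.16 points in arrested SS, 87.1 in proliferating SS and 87.6 in proliferating WT cells. Of 70 such alternatives 9 had the other sign, all for Ezh2 or pRb. With the bounds trimmed by 25 kb the H3K27me3 excess was 51.0 points in arrested SS, 39.9 in proliferating SS and 46.7 in proliferating WT cells. The surroundings then took in the covered sequence cut off on each side, which lowers the excess by construction. Coverage inside the trimmed bounds was 82.8% in arrested SS, 93.3% in proliferating SS and 91.1% in proliferating WT cells. The share of WT-covered sequence also under SS peaks was 3.79% for arrested H3K27me3 at the common cutoff, 96.3% and 100% for arrested and proliferating H3K27me3 with peaks within 1 kb merged, and 0% for arrested pRb among peaks at or above the median score. The common cutoff left 3102 arrested SS peaks in the whole list. No cause of these shares was tested. With steps of 10 kb, of which there are fewer, 17 were gained in arrested SS over WT, 0 in proliferating SS over WT, and 5 in SS and 20 in WT cells were lost on arrest. With a limit of 10 percentage points in place of 20, 20 steps were lost on arrest in SS cells, 3 were gained in proliferating SS over WT, and for pRb 5 were gained in arrested SS over WT and 6 in arrested over proliferating SS cells. At 30 points, 4 were lost on arrest in SS cells and 0 gained in proliferating SS over WT. Autosomal shares were counted only for H3K27me3, with steps of 5 kb and the limit of 20 points. The counts at other step sizes or limits, and those for pRb, therefore have no background and describe the interval only. No paired analysis was possible because each group has 1 library.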
